A study of Mus musculus with 6 samples.

Results

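The 7 genes described here, the platelet genes Ppbp, Pf4, Itga2b and Gp9 and the red cell genes Alas2, Slc4a1 and Klf1, were measured in 6 lung metastases of MMTV-Myc mouse tumours. They are 7 of the 12393 genes that had a probe set annotated with 1 symbol, and they were read by 9 of the 22626 probe sets that were not controls. The genes were chosen on the signals of these same arrays, with both genotype groups known, so their levels are given as a description and without a test. Probe sets were taken where the annotation gave only the symbol of the gene, and the one with the highest mean signal over the 6 arrays was the main one. Slc4a1 had 3 probe sets and the other 6 genes had 1 each.

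In the MMTV-Myc model a mammary tumour virus promoter drives the Myc oncogene, mainly in mammary epithelium, and this transgene was shared by all 6 samples. The labels give 3 metastases the genotype Myc E2F2 KO (KO) and 3 the genotype Myc E2F3 Het (Het), all on the FVB strain. No metastasis with both E2F genes intact was analysed here, and the labels give no age or sex. Metastases were collected at the end of the experiment and frozen, and total RNA of the whole piece was hybridised to Affymetrix mouse arrays. All 3 Het titles hold one and the same number and end in LM2, LM1 and LM3 for Het replicates 1, 2 and 3, whereas each KO title holds a number of its own. What these numbers stand for was not given in the sources used here. If the Het arrays came from 1 mouse, genotype and mouse of origin cannot be told apart.

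Platelets are shed by megakaryocytes and carry RNA from them. Their granules release the chemokines encoded by Ppbp and Pf4 when they are activated, and their surface holds receptors for fibrinogen and von Willebrand factor. Mouse lung is known to hold megakaryocytes that release platelets. Mature red cells of mammals have no nucleus, but young ones still carry RNA for globin and for haem synthesis, so blood left in a tissue adds both kinds of RNA to a bulk sample.

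All arrays had a trimmed mean signal of 500.2, as scaled by the authors. Myc had signals between 10662 and 13138 in KO and between 11302 and 13558 in Het metastases. E2f3 read 91.6, 91.4 and 137.9 in KO replicates 1, 2 and 3, and 87.2, 144.2 and 73.0 in Het replicates 1, 2 and 3. The place of this probe set relative to the disrupted stretch of E2f3 is not known, and E2f2 was not analysed here, so neither genotype label was checked. Het replicate 1 had a ratio of 3' to 5' signal of 11.8 for the transferrin receptor controls, against 3.25 to 5.15 on the other 5 arrays. For the actin controls this ratio was 1.64, 1.49 and 1.48 in KO replicates 1, 2 and 3. It was 2.375, 1.67 and 1.73 in Het replicates 1, 2 and 3, so every Het array lay above every KO array. The part of RNA quality in the differences between the groups was not tested. All 6 mammary epithelial markers (Krt8, Krt18, Krt19, Epcam, Cdh1 and Elf5) were bright, with summed signals of 40904 to 44118 in KO and 41579 to 48010 in Het metastases.

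The promoters of 3 members are shown because Ppbp and Pf4, which lie next to each other with 0 annotated genes between them, differed most among the members on the log2(signal + 16) scale, and because Alas2 was low in 1 metastasis of each group. The sequences are RefSeq's for the GRCm38.p6 assembly and run from 250 bases before to 50 bases after the annotated start, 5′ to 3′ along the gene. Capitals mark matches on either strand to GATAA, the core bound by GATA factors, CCGGAA, a core bound by ETS factors, and CACCC, the box bound by Klf1 and its relatives. The windows lie at chr5:90768268-90768567 (plus strand) for Ppbp, chr5:90772185-90772484 (plus strand) for Pf4 and chrX:150547167-150547466 (plus strand) for Alas2.
Ppbp: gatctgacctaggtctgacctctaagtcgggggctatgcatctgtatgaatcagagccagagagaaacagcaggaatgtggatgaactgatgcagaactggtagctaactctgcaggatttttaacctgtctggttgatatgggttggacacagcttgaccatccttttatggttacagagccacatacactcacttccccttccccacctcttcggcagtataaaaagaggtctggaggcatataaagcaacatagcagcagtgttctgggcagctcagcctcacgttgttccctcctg
Pf4: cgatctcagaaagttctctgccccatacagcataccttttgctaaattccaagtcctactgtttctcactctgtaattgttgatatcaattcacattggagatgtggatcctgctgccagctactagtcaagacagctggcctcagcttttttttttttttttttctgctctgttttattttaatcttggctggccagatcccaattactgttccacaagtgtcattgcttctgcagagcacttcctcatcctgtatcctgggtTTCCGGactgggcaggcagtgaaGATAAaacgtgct
Alas2: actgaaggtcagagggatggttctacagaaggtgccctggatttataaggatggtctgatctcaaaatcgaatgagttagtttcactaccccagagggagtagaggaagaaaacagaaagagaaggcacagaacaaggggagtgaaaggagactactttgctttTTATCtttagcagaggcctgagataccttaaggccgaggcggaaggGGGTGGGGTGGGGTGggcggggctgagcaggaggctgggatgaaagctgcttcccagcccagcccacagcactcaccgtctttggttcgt

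The Ppbp window held none of the 3 motifs. That of Pf4 held CCGGAA 14 bases and GATAA 37 bases after the start, and that of Alas2 held GATAA 86 bases before the start and 3 adjoining CACCC boxes between it and the start. Among the members with a promoter in the table, Itga2b, Gp9 and Klf1 included, 4 of 6 held GATAA, 1 held CCGGAA and 4 held CACCC. Of all 32851 promoters of the same length, 25.4% held GATAA, 14.9% held CCGGAA and 57.5% held CACCC, and matches of different motifs did not overlap in the members. A match of letters is a description and shows no binding. Slc4a1 has no promoter shown.

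The 4 platelet members were each higher on every KO array than on any Het array. Ppbp, the precursor of a chemokine that attracts neutrophils, had signals of 169.9, 208.2 and 191.6 in KO replicates 1, 2 and 3, against 83.1, 25.5 and 90.9 in Het replicates 1, 2 and 3. The KO arrays lay close together, and Het replicate 2 was far below the other Het arrays. The means were 189.9 ± 19.2 in KO and 66.5 ± 35.7 in Het (SD, 3 arrays per group), 2.86 times as high in KO. On the log2(signal + 16) scale, which understates the change of dim genes, the difference of KO minus Het was 1.43. It was 0.996 without Het replicate 2 and reached 1.68 without Het replicate 3.

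Pf4, platelet factor 4, a chemokine that binds heparin, had signals of 660.6, 305.6 and 358.3 in KO replicates 1, 2 and 3, against 251.2, 153.8 and 257.1 in Het replicates 1, 2 and 3. KO replicate 1 was set apart above the others, and Het replicate 2 was again the lowest. The means were 441.5 ± 191.5 in KO and 220.7 ± 58.0 in Het (SD, 3 arrays per group), a log2 difference of 0.91. The value was 0.58 without KO replicate 1. In bulk samples such as these, fewer cells of a type and less RNA per cell cannot be told apart.

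The receptor genes showed narrower gaps between the groups. Itga2b, the alpha chain of the platelet fibrinogen receptor, had signals of 154.2, 143.3 and 108.3 in KO replicates 1, 2 and 3, against 98.8, 76.0 and 101.7 in Het replicates 1, 2 and 3. The means were 135.2 ± 24.0 in KO and 92.2 ± 14.1 in Het (SD, 3 arrays per group), and the log2 difference was 0.48. KO replicate 3 and Het replicate 3, the closest arrays of the groups, were only 0.08 apart on the log2 scale.

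Gp9, a subunit of the platelet receptor for von Willebrand factor, had signals of 19.4, 6.74 and 18.0 in KO replicates 1, 2 and 3, against 5.86, 2.20 and 2.91 in Het replicates 1, 2 and 3. No detection calls were used here, and it is not known if such low signals exceed background. The log2 difference was 0.62 with the pseudocount of 16, but 1.71 with a pseudocount of 1 and 0.21 with one of 64, so its size depends on that choice. KO replicate 2 and Het replicate 1 were 0.06 apart on the log2(signal + 16) scale.

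Of the 7 members, 4 passed the filter that left out the dimmest 40% of probe sets: Ppbp, Pf4, Itga2b and Alas2. Every KO array was above every Het array for 7.87% of the 13576 probe sets kept and below every Het array for 8.89%. Without the filter, every KO array was above for 7.47% of the 22626 probe sets, Gp9 among them. A log2 difference of at least 1 with all KO arrays above was found for 0.913% of the probe sets kept, and Ppbp was the 1 member among these. The members were chosen on this contrast, so nothing is read from their count beside these shares. When limma compared the 3 KO arrays with the mean of the Het arrays, 0% of the probe sets kept passed an adjusted p of 0.05 (lowest adjusted p = 0.99987). At an unadjusted p under 0.05 there were 305, and with each array as a sample limma called 0, with 1395 at an unadjusted p under 0.05. An exact test of 3 arrays against 3 cannot give a p below 0.1.

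**Figure D1:**
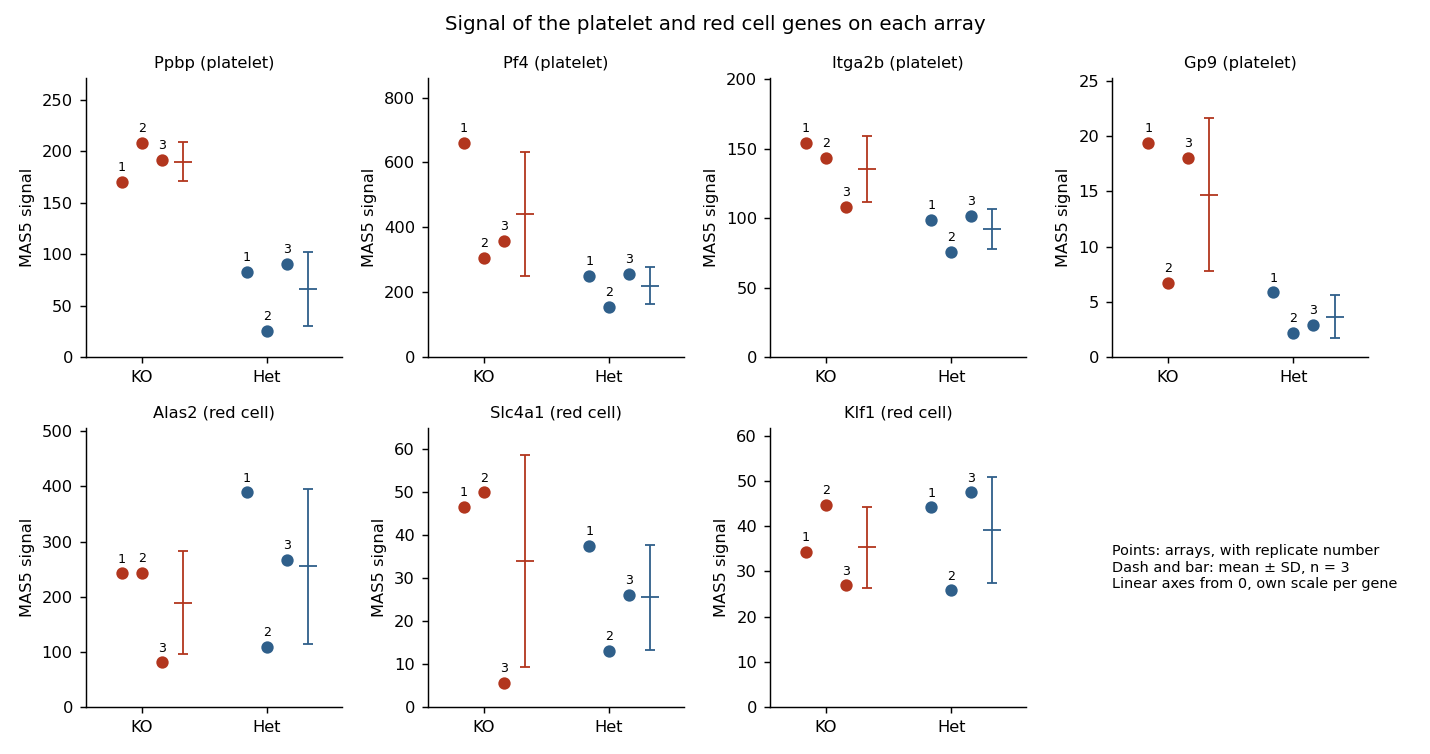
Signals of the 7 genes (main probe set, MAS5 signal on linear axes from 0, one scale per gene) on the 3 KO arrays at the left and the 3 Het arrays at the right of each panel. Points are arrays with their replicate numbers, and the dash and bar give mean ± SD. For the 4 platelet genes all KO points lie above all Het points, whereas for the 3 red cell genes KO replicate 3 and Het replicate 2 are the lowest points of their groups.

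The red cell members did not follow the genotype groups. They were low in 1 metastasis of each group, KO replicate 3 and Het replicate 2, and higher in the other 4. Alas2, the first enzyme of haem synthesis in red cell precursors, had signals of 242.0, 243.4 and 80.6 in KO replicates 1, 2 and 3, against 389.0, 108.5 and 267.1 in Het replicates 1, 2 and 3. The means were 188.7 ± 93.6 in KO and 254.9 ± 140.6 in Het (SD, 3 arrays per group), and the groups overlapped. The log2 difference of -0.38 was smaller than the SD of either group, 0.82 in KO and 0.87 in Het on the same scale. Its sign turned to 0.09 without KO replicate 3, and it was -0.86 without Het replicate 2, where both remaining Het arrays lay above every KO array.

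Slc4a1, the anion exchanger band 3 of the red cell membrane, had signals of 46.5, 49.9 and 5.56 in KO replicates 1, 2 and 3, against 37.5, 12.96 and 26.1 in Het replicates 1, 2 and 3. KO replicates 1 and 2 were the highest arrays and KO replicate 3 the lowest, so the spread within KO was wider than that between the groups. The means were 34.004 ± 24.7 in KO and 25.5 ± 12.3 in Het (SD, 3 arrays per group), and the log2 difference was 0.15. Without KO replicate 3 it was 0.67, and both remaining KO arrays lay above every Het array. The second probe set of Slc4a1 read 43.8, 44.4 and 4.08 in KO replicates 1, 2 and 3, and 31.5, 0.771 and 8.75 in Het replicates 1, 2 and 3. It was also low in KO replicate 3 and Het replicate 2, with a log2 difference of 0.63. The third probe set stayed between 0.623 and 3.65 on all 6 arrays.

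Klf1, a transcription factor of red cell precursors, had signals of 34.4, 44.6 and 26.9 in KO replicates 1, 2 and 3, against 44.2, 25.8 and 47.5 in Het replicates 1, 2 and 3. The lowest and the highest of the 6 arrays were both Het arrays. The log2 difference was -0.09, against SDs of 0.25 in KO and 0.33 in Het metastases. Slc4a1 and Klf1 did not pass the filter on dim probe sets.

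Of the globin genes, the main product of red cells, the bright probe sets were likewise low in KO replicate 3 and Het replicate 2, relative to their own groups. These probe sets were added after their values were seen, and 4 of them, 1 of beta globin and 3 of alpha globin, are each annotated with several globin genes and cannot be given to 1 gene. The beta globin probe set read 13073, 14709 and 7362 in KO replicates 1, 2 and 3, against 12940.0, 9655 and 11660.0 in Het replicates 1, 2 and 3. The 4 probe sets were all highest in KO replicate 2 and all lowest in KO replicate 3, with Het replicate 2 the lowest Het array. Their log2 differences of KO minus Het lay between -0.09 and 0.04. The highest array was up to 2.85 times the lowest for these probe sets and 4.83 times the lowest for Alas2. Hbb-b2, a beta globin gene, had a main probe set of its own with signals of 158.7, 206.9 and 39.0 in KO replicates 1, 2 and 3, and 235.5, 35.0 and 148.3 in Het replicates 1, 2 and 3. This probe set too was low in KO replicate 3 and Het replicate 2. The dimmer probe set of Hbb-b2 read 54.4, 77.4 and 21.7 in KO replicates 1, 2 and 3, and 47.6, 47.8 and 131.0 in Het replicates 1, 2 and 3, so it was low in KO replicate 3 but Het replicate 2 was not its lowest Het array. Het replicate 2 was the highest Het array for several dim probe sets of other globin genes, among them Hba-a2, at 31.5, and Hba-x, at 26.1.

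**Figure D2:**
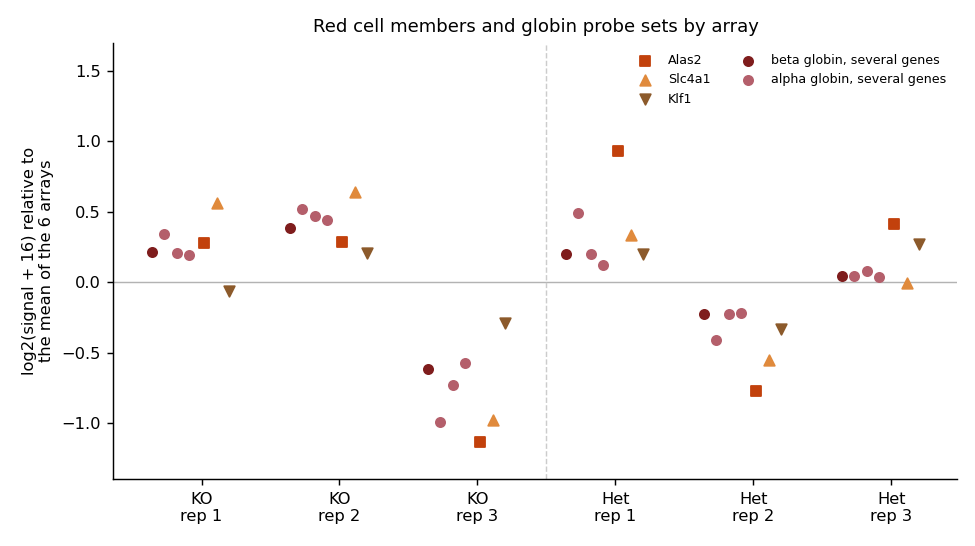
Log2(signal + 16) of Alas2, Slc4a1 and Klf1 and of 4 globin probe sets annotated with several genes, each relative to its own mean over the 6 arrays, for the 3 KO arrays at the left and the 3 Het arrays at the right. All of them lie below 0 in KO replicate 3 and in Het replicate 2, and Alas2 is at -1.14 and -0.77 there.

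The blood content of each metastasis was summarised as the mean of the platelet members and of the red cell members on the log2(signal + 16) scale, after subtraction of each gene's mean over all arrays. The members were chosen with this contrast known, which in part fixes the platelet level of each group, so the group difference in it is no result. The platelet level was 0.66, 0.27 and 0.36 in KO replicates 1, 2 and 3, against -0.22, -0.84 and -0.23 in Het replicates 1, 2 and 3. The red cell level was 0.26, 0.38 and -0.80 in KO replicates 1, 2 and 3, against 0.49, -0.55 and 0.23 in Het replicates 1, 2 and 3. By these members, KO replicate 3 combined a high platelet level with the lowest red cell level, and Het replicate 2 was low in both. Het replicates 1 and 3 combined low platelet levels with high red cell levels. The 25 other platelet genes had a mean level of 0.21, 0.16 and -0.006 in KO replicates 1, 2 and 3. In Het replicates 1, 2 and 3 it was -0.07, -0.25 and -0.04. The level of the 44 other red cell genes was -0.05, 0.07 and -0.23 in KO replicates 1, 2 and 3. It was 0.11, 0.002 and 0.11 in Het replicates 1, 2 and 3. KO replicate 3 was near the mean of all arrays on the first list, as was Het replicate 2 on the second. Within the Het group, whose arrays share a title number, the highest array exceeded the lowest 3.57 times for Ppbp and 3.58 times for Alas2.

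Markers of other cells also differed between the arrays. Of 12 alveolar lung markers 11 were measured, none was listed at 0, and their level was 1.49, 0.41 and -1.13 in KO replicates 1, 2 and 3, against 0.28, -0.63 and -0.42 in Het replicates 1, 2 and 3. Their summed signal was 12757 to 70361 in KO and 20551 to 32582 in Het metastases. All 12 endothelial markers were measured, with summed signals of 2067 to 5323 in KO and 2234 to 3860.3 in Het metastases, and their level was also lowest in KO replicate 3, at -0.51. KO replicate 3 was the array poorest in alveolar and endothelial markers. Its signals of 191.6 for Ppbp, 358.3 for Pf4 and 18.0 for Gp9 lay above every Het array. For Pf4 this was below the 660.6 of KO replicate 1. Its Itga2b signal of 108.25 was close to the 101.66 of Het replicate 3. On the log2(signal + 16) scale this Itga2b value was at -0.03 relative to the gene's mean over all arrays. The alveolar and endothelial levels were highest in KO replicate 1, as were Pf4, Itga2b and Gp9. The part of lung tissue and vessels in these signals was not tested.

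Leukocyte markers, 6 of 6 measured and none listed at 0, had summed signals of 2383 to 4811 in KO and 2608 to 3588 in Het metastases. Their level was -0.12, 0.61 and -0.38 in KO replicates 1, 2 and 3, against 0.15, -0.28 and 0.03 in Het replicates 1, 2 and 3. Like the red cell members, they were lowest in KO replicate 3 and Het replicate 2. The alveolar markers were lowest in the same arrays, at -1.13 and -0.63, and the endothelial markers in KO replicate 3 and Het replicate 3. Neutrophil markers, 7 of 8 measured, ran another way, with a level of -0.92, 0.90 and 0.57 in KO replicates 1, 2 and 3, against 0.14, -0.51 and -0.19 in Het replicates 1, 2 and 3. Their summed signal was 4109 to 13212 in KO and 9880.2 to 13428 in Het metastases. The part of white cells in the member signals was not tested.

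**Figure D3:**
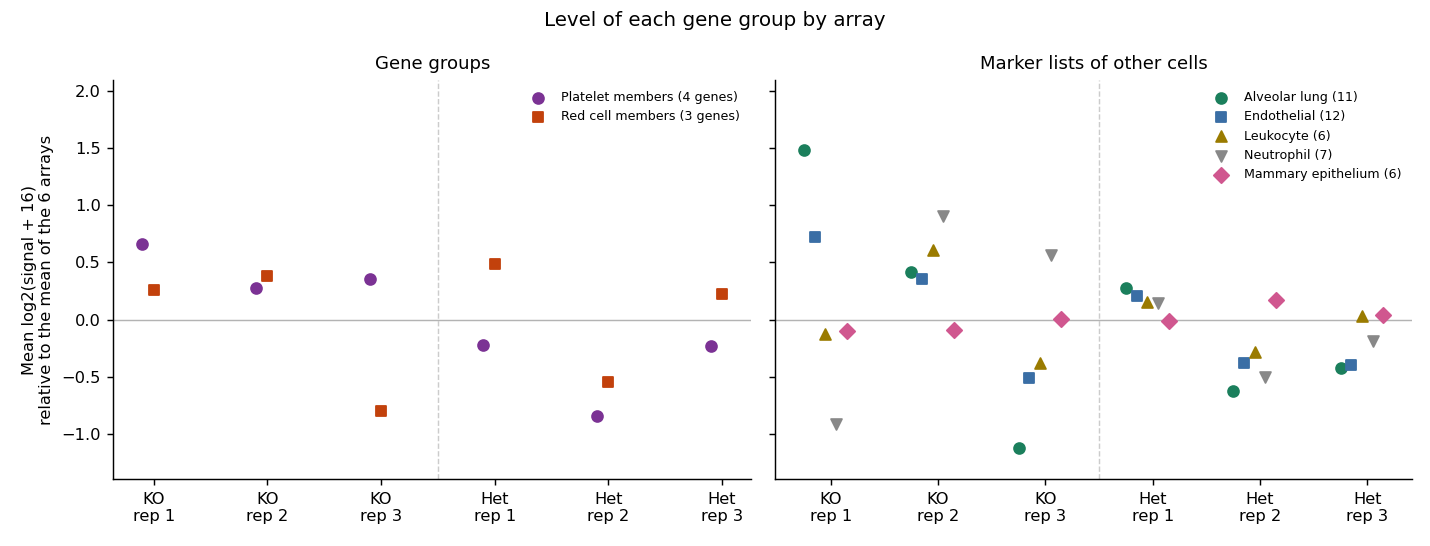
Mean log2(signal + 16) of each gene group, centred on the 6-array mean, for the 3 KO arrays left and the 3 Het arrays right of the dashed line. The left panel shows the platelet members, above 0 in KO and below 0 in Het, and the red cell members, at -0.80 in KO replicate 3 and -0.55 in Het replicate 2, and the right panel shows marker lists of other cells, with alveolar markers at 1.49 in KO replicate 1 and -1.13 in KO replicate 3. The members were chosen on this contrast, which in part fixes the side of the platelet points.

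For the main probe sets of other platelet genes the groups overlapped. Of 33 such genes 25 were measured and 9 passed the filter. None of the 9 was called by limma in either direction, with 0 at an unadjusted p under 0.05. With each array as a sample, 0 were called and 2 had an unadjusted p under 0.05. That fit takes the Het arrays, which may be of 1 mouse, as separate samples. Over all 13576 probe sets kept it had 1395 at an unadjusted p under 0.05, so the 2 are no result about the list. The median log2 difference was 0.19 over the 9 genes and 0.21 over the 25, beside -0.02 over all probe sets kept. By main probe sets, the difference was positive for 21 of the 25, and the arrays of the groups overlapped for all 25. Gp5, which joins Gp9 in the receptor for von Willebrand factor, had signals of 52.6, 41.0 and 49.9 in KO replicates 1, 2 and 3, against 49.8, 31.2 and 31.4 in Het replicates 1, 2 and 3. Gp5 is named beside Gp9 and was chosen after its values were seen.

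Gng11, a G protein subunit, had signals of 1017.4, 1257 and 473.6 in KO replicates 1, 2 and 3, against 575.3, 377.0 and 396.9 in Het replicates 1, 2 and 3. Its log2 difference was 0.92 (SE 0.55, limma adjusted p = 0.99987), and KO replicate 3 lay below Het replicate 1. Tgfb1, a growth factor stored in platelets and made by many other cells, differed by 0.89 (SE 0.57, limma adjusted p = 0.99987). Itgb3, the beta chain that pairs with Itga2b, was at 33.1 in KO replicate 1 and between 1.83 and 6.49 on the other 5 arrays, and its log2 difference was 0.50. F5, a coagulation factor gene, was at 0.49, and a dimmer probe set of it was at 1.07, with every KO array above every Het array. That held for 7.47% of all 22626 probe sets. The Itgb3 probe set and both F5 probe sets did not pass the filter on dim probe sets.

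Besides Gng11, the brightest genes of this list, which are also made by cells other than platelets, had differences between -0.09 and 0.33. Vwf, which endothelial cells make too, was at 0.18, the adhesive protein gene Thbs1 at -0.09, the integrin activator Fermt3 at 0.08, the kinase C substrate Plek at 0.33 and the tetraspanin gene Cd9 at 0.19. The SEs of these 5 differences lay between 0.24 for Fermt3 and 0.57 for Vwf, and the limma adjusted p was 0.99987 for each.

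Of 54 other red cell genes, 44 were measured and 22 passed the filter. None was called by limma in either direction, with 1 at an unadjusted p under 0.05, beside 305 of all 13576 probe sets kept. With each array as a sample, 0 were called and 3 had an unadjusted p under 0.05, beside 1395 of the 13576. These counts are no result about the list. The median log2 difference was -0.05 over the 22 genes and -0.06 over the 44, beside -0.02 over all probe sets kept. Among the 44, 18 differences were positive and 26 negative. By main probe sets, no overlap of arrays was seen for 4 of the 44 genes, each lower in KO: Hba-a1, Lmo2, Zfpm1 and Trim10. Lmo2 and Trim10 passed the filter on dim probe sets, and Hba-a1 and Zfpm1 did not. Without the filter, every KO array was below every Het array for 1570 of the 22626 probe sets, and with it for 8.89% of those kept. The count of 4 is no result about the list. Lmo2 and Zfpm1, cofactors of GATA factors, were named after their values were seen.

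The alpha globin gene Hba-a1 had a probe set of its own with signals of 4.79, 3.81 and 2.65 in KO replicates 1, 2 and 3, against 25.3, 15.6 and 33.4 in Het replicates 1, 2 and 3. Its log2 difference was -1.02, whereas the 3 probe sets shared by Hba-a1 and Hba-a2 had differences between -0.09 and 0.04, and it did not pass the filter on dim probe sets. Trim10 differed by -0.94 (SE 0.53, limma adjusted p = 0.99987) and Lmo2 by -0.85 (SE 0.33, limma adjusted p = 0.99987). Zfpm1 was at -0.42, with a dimmer probe set at 0.45.

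Bpgm, which makes the phosphate ester that eases oxygen release in red cells, had a positive difference, as had 18 of the 44 genes of its list. Its signals were 899.9, 659.6 and 321.1 in KO replicates 1, 2 and 3, against 352.9, 258.8 and 273.6 in Het replicates 1, 2 and 3. The log2 difference was 0.94 (SE 0.56, limma adjusted p = 0.99987), and its other probe sets were at 0.98 and 1.01, the second with every KO array above every Het array. The order of the KO arrays was that of the alveolar and endothelial markers, and their part in the Bpgm signal was not tested. Tspan33 was at -1.13 (SE 0.82), with KO replicates 1 and 2 at 75.4 and 56.8 and KO replicate 3 at 280.5, inside the range of 229.2 to 316.8 on the Het arrays. Its dimmer probe sets were at -0.74, -0.77 and -1.59, and for the last 2 every KO array was below every Het array. That held for 8.89% of all probe sets kept. The probe set at -1.59 did not pass the filter on dim probe sets.

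The brightest genes of the red cell list have roles in other cells as well. Tfrc, the receptor for iron uptake, was at 0.08, the glucose transporter gene Slc2a1 at -0.52, the carbonic anhydrase gene Car2 at -0.61, the peroxiredoxin gene Prdx2 at -0.07, the haem synthesis gene Alad at -0.34 and the water channel gene Aqp1 at 0.21. The limma adjusted p was 0.99987 for each of these 6. Dimmer probe sets of Tfrc were at 1.02 and 0.94, and Het replicate 1 had the highest ratio of 3' to 5' signal for this gene. The part of that ratio in these differences was not tested.

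**Figure D4:**
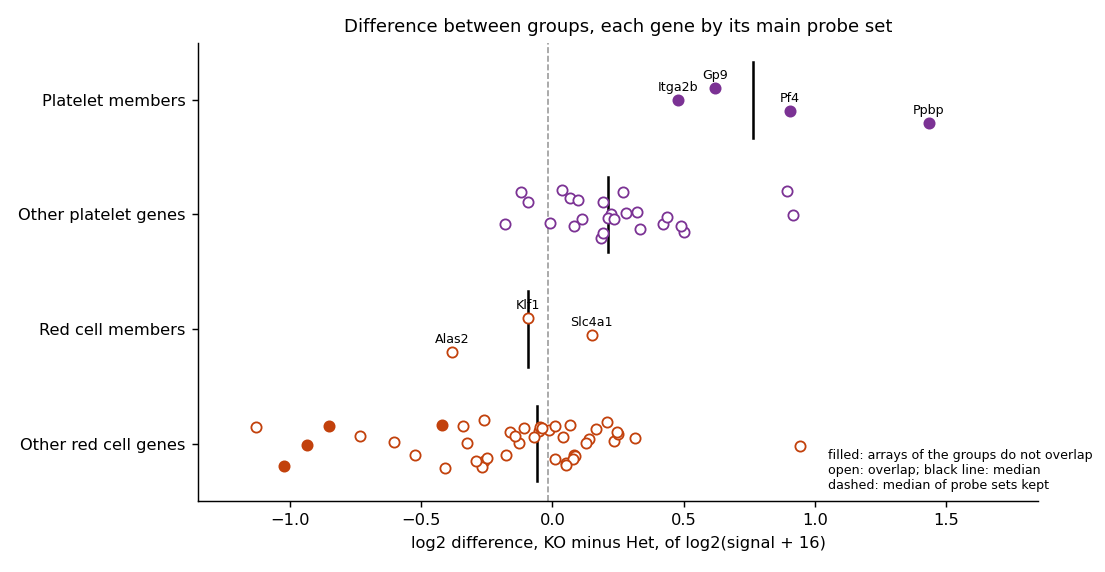
Log2 difference of KO minus Het (difference of mean log2(signal + 16), 3 arrays a group) for each gene by its main probe set, in 4 rows. Filled points are genes whose arrays do not overlap between the groups, black lines are medians and the dashed line is the median of -0.02 over the probe sets kept. The 4 platelet members are filled and lie between 0.48 and 1.43, whereas the 25 other platelet genes are all open, with a median of 0.21. The members were chosen on this contrast, so nothing is read from that difference.

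The genes whose pattern over the 6 arrays was most like that of a member were found by Pearson's r of log2(signal + 16) among the 13576 probe sets kept, for the 4 members that passed the filter. The points share their arrays and the Het arrays may share a mouse, so r is a description. For Ppbp these were Morf4l2 (r = 0.993), Otud4 (0.992) and Arf1 (0.991), for Pf4 Slc1a4 (0.993), Cyb5a (0.992) and Wipf1 (0.990), for Itga2b Epn2 (0.992), Mettl9 (0.991) and Cflar (0.990), and for Alas2 Pltp (0.992), Pfn2 (0.990) and Tecpr1 (0.990). None of these 12 genes belongs to the platelet and red cell lists. Of the 13575 probe sets compared with each member, 34 had r above 0.95 for Ppbp, 42 for Pf4, 79 for Itga2b and 52 for Alas2. Between members, r was 0.78 for Ppbp and Pf4, 0.86 for Ppbp and Itga2b and 0.87 for Pf4 and Itga2b. It was 0.11 for Alas2 and Ppbp, 0.16 for Alas2 and Pf4 and 0.33 for Alas2 and Itga2b. The members were chosen on these same arrays and this contrast, which in part fixes r between them, so nothing is read from these values.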

How the data were processed

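RNA of 6 metastases was measured on Affymetrix mouse arrays. The authors deposited intensities (linear MAS5 signals). Per the submitters' processing notes the tools were MAS5 and Affymetrix Expression Console, and versions and detection calls are not given in the sources used here. The 2% trimmed means were equal, so the deposited intensities were already scaled. The number of arrays limits the precision.

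Of 22690 probe sets, 64 controls were left out. The platform annotation gave 1 symbol for 20380, several for 691 and none for 1555, and all 9 member probe sets were matched by Entrez ID to a gene table of GRCm38.p6. Signals were transformed to log2(signal + 16). For tests, the dimmest 40% of probe sets by mean were dropped, which kept 13576. KO minus Het was fitted with limma 3.58.1 in R 4.3.3 (lmFit, eBayes with a mean-variance trend, Benjamini-Hochberg over all probe sets kept, threshold 0.05). The 3 Het arrays were averaged into 1 sample because their titles share a number, with a spread taken to equal that of the KO samples. With 1 Het sample, the SEs and p-values of this fit rest on the spread between the KO samples, moderated over probe sets by eBayes. The labels do not say that samples came from separate animals, so that spread may be technical. The fit was tested on simulated data with independent arrays and large planted changes. That test does not show how often smaller changes would be called, or what arrays of the same mouse would do.

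Members and lists were chosen with earlier results of these data known. The text names all members; from the lists of other genes, those whose arrays did not overlap and differed by 1 or more on the log2 scale, the 6 with the highest signal and the 4 with the largest difference; and for each member kept the 3 genes with the highest r. Alternatives covered the pseudocount, quantile normalization, the filter, the probe set of a gene, the unit of replication, the trend and leaving out each array.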

Additional observations from a re-analysis of the deposited data

How the results depend on the processing

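All differences of the 4 platelet members stayed positive under the 9 alternatives run for each: Ppbp between 0.996 and 1.69, Pf4 between 0.58 and 1.12, Itga2b between 0.35 and 0.61 and Gp9 between 0.21 and 1.71. This is fixed in part by arrays that do not overlap, and of these alternatives only quantile normalization could make them overlap; it did not. Signs of red cell members turned with single arrays: Alas2 to 0.092 and Klf1 to 0.027 without KO replicate 3, Klf1 to 0.019 without Het replicate 3, and Slc4a1 to -0.094 without KO replicate 1, to -0.13 when KO replicate 2 was dropped and to -0.089 without Het replicate 2. Over the 6 fits without 1 array, Alas2 was -0.86 to 0.092, Slc4a1 -0.13 to 0.67 and Klf1 -0.28 to 0.027. The median of the other red cell genes turned to 0.026 without Het replicate 1 and was -0.15 to 0.026 over the 6 fits without 1 array. The cause of these turns was not tested. With limma, 0 probe sets passed under each of the 14 alternatives. Probe sets without overlap numbered 1068 above and 1207 below in KO; above, they were 1690 without the filter, 655 with 60% left out and 1456 to 2441 without 1 array, and below 1643 to 2545 without 1 array. Those with a log2 difference of at least 1 numbered 124 above and 40 below. With a pseudocount of 64 they were 75 above and 26 below, with no filter 61 below, with 60% left out 64 above, and without 1 array 107 to 365 above and 40 to 90 below, with the highest of each of these 4 counts when KO replicate 3 was left out. Fewer arrays overlap less often by construction. No paired analysis was possible because the KO titles carry no replicate number that the Het titles share. Low signals of Gp9, Slc4a1 and Klf1 limit what their values show, since detection calls were not used here.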
